A study of Arabidopsis thaliana with 27 samples.

Results

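The nuclear photosynthesis genes described here are 47 Arabidopsis thaliana loci among the 33602 loci of the count tables. They were chosen by name and not by level. They comprise 4 LHCA genes, 14 LHCB genes, 4 RBCS genes, 12 PSA genes, 9 PSB genes and 4 Calvin cycle genes (GAPA, GAPB, PRK and RCA). Their transcripts were followed by mRNA sequencing in 27 libraries of the Columbia background, 9 from stamens of flower stage 11 and 18 from gynoecia of flower stage 12. The stamen libraries were 4 from mARF8 plants, 2 from arf6arf8 plants and 3 from wild type. Gynoecia gave 4 libraries of arf6 Pstk_axr3, 4 of Pstk_axr3, 4 of mARF8, 2 of arf6arf8 and 4 of wild type.

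The auxin response factors ARF6 and ARF8 bind the promoters of auxin-responsive genes, and their mRNAs are targets of the microRNA miR167. In arf6arf8 both genes are mutated. The mARF8 plants carry an added genomic copy of ARF8 whose miR167 target site is mutated. By their titles, stamen replicates 1 and 3 were of line 3B and replicate 2 of line 4B, and the title of replicate 4 reads T1s. The genotype labels of all 4 stamen libraries name line 4B, however. By title, mARF8 gynoecium replicates 1 to 3 were of line 3B, and the title of gynoecium replicate 4 names no line. The Pstk_axr3 transgene expresses the stabilized AXR3/IAA17 protein, a repressor of auxin response, from the SEEDSTICK (STK) promoter. Of the Pstk_axr3 libraries, replicate 3 was of line 15-5 and replicate 4 of F1 plants from a cross of Columbia to line 25-2. By their titles, the arf6 Pstk_axr3 libraries alternate between lines 15-5 and 25-2, although all their genotype labels name line 15-5. Plants grew under 14 h of light and 10 h of dark, and organs were frozen 1 to 3 hours after dawn. The stamens were still green at collection. Titles also carry library numbers, called low up to 23 and high from 26. Nothing in the labels says that replicates came from separate sowings, so p-values measure the spread between these libraries.

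In the chloroplast, light is captured by chlorophyll-binding antenna proteins, encoded by LHCA genes for photosystem I and by LHCB genes for photosystem II. The photosystems pass electrons to the carriers that make reducing power and ATP, and the Calvin cycle spends both to fix carbon dioxide through Rubisco. PSA and PSB genes encode the nuclear subunits of photosystems I and II, and RBCS genes the small subunit of Rubisco. The core subunits of both photosystems and the Rubisco large subunit are encoded in the plastid.

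Libraries held 3692975 to 15374607 counts, and the 47 genes took 0.955 to 1.79% of them in mARF8 stamens, 0.508 to 0.547% in arf6arf8 stamens, 0.656 to 0.746% in wild-type stamens and 1.31 to 2.40% in gynoecia. Levels are given below as CPM, counts scaled to the same library size over all 27 libraries together. ARF8 was at 590, 624, 333 and 576 CPM in mARF8 stamens, 24.0 and 25.0 CPM in arf6arf8 stamens, and 82.7, 97.9 and 73.3 CPM in wild-type stamens, highest in mARF8 and lowest in arf6arf8. The stamen identity genes AP3 and PI summed to 1150 to 1472 CPM in stamens and 7.47 to 26.7 CPM in gynoecia. The summed carpel and ovule markers ran from 12.7 to 28.8 CPM in stamens and from 216 to 453 CPM in gynoecia. Of the 47 genes, 12 have 1.48 to 32.5% of their 50-base stretches also elsewhere in the genome or in the transcript of another of the 47. These genes are all LHCB1 genes, LHCB2.1, LHCB2.2, LHCA2 and the 4 RBCS genes, and their counts are uncertain between near-identical sequences. Another gene overlaps 19 of the 47, and whether the counting used strand is not given in the sources used here.

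Among wild-type organs, the order of the levels was alike at its ends. Per kilobase of exon, RBCS1A, the major Rubisco small subunit gene, ranked first in both, at 1091 ± 77.4 CPM per kb in stamens (SD, n = 3) and 1599 ± 138 CPM per kb in gynoecia (SD, n = 4). In stamens it was followed by the antenna gene LHCB1.3 at 530 ± 23.2 and PSBR, a subunit near the oxygen-evolving complex, at 479 ± 45.8 CPM per kb, whose ranges over 3 libraries (503 to 547 and 436 to 527) overlapped. In gynoecia the next were LHCB1.5 at 841 ± 83.7 and LHCB1.3 at 727 ± 226 CPM per kb, which also overlapped. At the other end, LHCB1.4, RBCS2B and RBCS1B were the 3 lowest in both organs, with LHCB1.4 at 0.645 ± 0.234 CPM per kb in stamens and 1.76 ± 2.12 CPM per kb in gynoecia.

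Set against wild-type gynoecia, wild-type stamens had less transcript of most of these genes: 33 were lower and 1 was higher, against a background of 39.6% of 20665 loci lower and 41.4% higher (edgeR quasi-likelihood test with Benjamini-Hochberg adjustment over all loci tested, called under 0.05). The median log2 fold change was −0.82, against 0.02 over all loci. By role, 11 of 12 PSA, 8 of 9 PSB, 3 of 4 LHCA, 7 of 14 LHCB, 2 of 4 RBCS and 2 of 4 Calvin cycle genes were lower. The 13 genes with no call included RCA (Rubisco activase), GAPB, RBCS3B and LHCA2. These folds between organs depend on the scaling: with total counts alone the median was −1.51 and that of all loci −0.66, while median-of-ratios scaling gave −0.68 and 0.15.

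PSAH1, a photosystem I subunit at which antenna proteins dock during state transitions, was at 63.5, 52.1 and 53.4 CPM in wild-type stamens and 115, 120, 117 and 108 CPM in wild-type gynoecia. The organs did not overlap, and the log2 fold change was −1.03 (SE 0.13, adjusted p = 1.60e-07, edgeR). LHCB5, a minor antenna protein (CP26), LHCA1 and GAPA (a subunit of the glyceraldehyde-3-phosphate dehydrogenase of the Calvin cycle) had log2 fold changes of −1.07, −1.01 and −0.96. PSBX, a small photosystem II subunit, was at 0.499 times its gynoecium level. RBCS2B had the lowest log2 fold change, −2.27 (SE 0.48), with 4.97, 2.23 and 3.91 CPM in stamens and 17.0, 20.9, 12.1 and 18.6 CPM in gynoecia. LHCB4.3, a gene for the minor antenna protein CP29, was the exception. It was at 86.6, 80.6 and 83.4 CPM in stamens and 51.8, 48.0, 44.5 and 30.9 CPM in gynoecia, a log2 fold change of 0.93 (SE 0.18, adjusted p = 7.17e-05, edgeR), which was 0.24 and no longer called with total counts alone. Within single libraries, where scaling cancels, LHCB4.3 made up 18.1 to 18.7% of the CPM of the 3 LHCB4 genes in wild-type stamens and 5.98 to 9.25% in wild-type gynoecia.

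**Figure D1:**
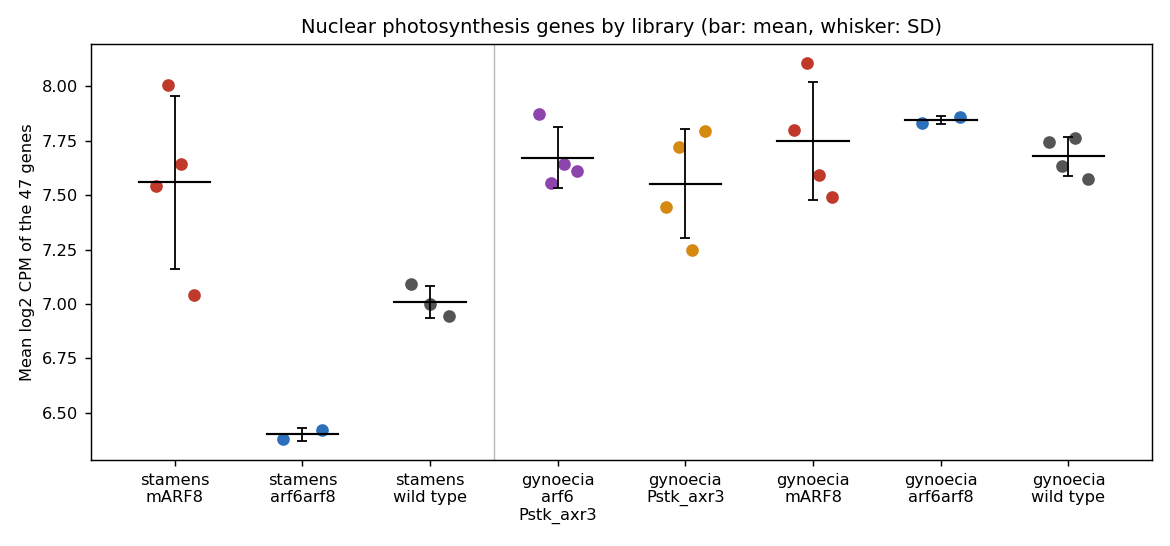
Mean log2 CPM of the 47 nuclear photosynthesis genes in each library (points), with the group mean (bar) and SD (whisker), stamens left of the line and gynoecia right of it. In stamens the mARF8 libraries lie 0.03 to 1.00 above the wild-type mean on the log2 scale, replicate 4 within the wild-type range, and both arf6arf8 libraries lie 0.59 and 0.63 below it.

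As a sum, the 47 genes reached 14974, 20067, 15516 and 10969.5 CPM in mARF8 stamens, 6659 and 6845 CPM in arf6arf8 stamens, and 10559, 10069 and 9434 CPM in wild-type stamens. By this sum the 3 genotypes did not overlap in stamens, whereas by mean log2 CPM mARF8 replicate 4 lay within the wild-type range. In gynoecia the group means lay between 14658 and 17770.2 CPM, with 15416 ± 1436 in arf6 Pstk_axr3, 14658 ± 2442 in Pstk_axr3, 17134 ± 3147 in mARF8, 17770.2 ± 58.1 in arf6arf8 and 16093 ± 1336 CPM in wild type (SD, n = 4, and 2 for arf6arf8), and there the ranges of mARF8 and of both Pstk_axr3 groups overlapped that of wild type.

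In mARF8 stamens, transcripts of all classes of these genes were higher than in wild-type stamens. Of the 46 tested (LHCB1.4 was too low), 32 were higher and 0 lower, against 20.4% of 18828 loci higher and 16.6% lower. The median log2 fold change was 0.69, against 0.09 over all loci, all 46 values were above 0, and the mARF8 and wild-type libraries did not overlap for 24 genes (background 20.5%). The photosystem subunits were called most often: 11 of 12 PSA and 8 of 9 PSB genes rose, with 3 of 4 Calvin cycle, 2 of 4 LHCA, 6 of 13 LHCB and 2 of 4 RBCS genes. Of the LHCB genes, LHCB3, which like LHCB1 and LHCB2 encodes a protein of the major trimeric antenna, and the minor antenna genes LHCB4.1, LHCB4.2, LHCB4.3, LHCB5 and LHCB6 were called. The 7 tested LHCB1 and LHCB2 genes were not, with log2 fold changes between 0.07 for LHCB1.2 and 0.64 for LHCB1.3, and a difference between these genes and the others was not tested.

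PSBY (AT1G67740), a small subunit of photosystem II, had the smallest p. It was at 204, 241, 193 and 184 CPM in the 4 mARF8 libraries and 124, 114 and 109 CPM in wild type, with every mARF8 library above every wild-type one (log2 fold change 0.90, SE 0.12, adjusted p = 0.00217, edgeR). PSAK, a photosystem I subunit next to the antenna, was at 206, 270, 176 and 153 CPM in mARF8 stamens and 115, 107 and 96.1 CPM in wild type (log2 fold change 1.00, SE 0.19, adjusted p = 0.00687). In both genes mARF8 replicate 2 (line 4B by title) was highest and replicate 4 (T1s by title) lowest of the mARF8 libraries. LHCB4.2 had the highest log2 fold change, 1.04 (SE 0.25, adjusted p = 0.0143), at 162, 279, 186 and 120 CPM in mARF8 stamens and 95.5, 94.4 and 96.4 CPM in wild type. PSBR had the lowest of those called, 0.51 (SE 0.15, adjusted p = 0.0292), and its groups overlapped, at 517, 599, 506 and 409 CPM in mARF8 stamens and 413, 342 and 371 CPM in wild type.

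Antenna genes LHCA3 and LHCB5 were at 259 to 503 CPM and 417 to 812 CPM in mARF8 stamens, against 210 to 220 CPM and 326 to 346 CPM in wild type. RBCS1A was at 2301, 2800, 2235 and 1777 CPM in mARF8 stamens and 1477, 1392 and 1281 CPM in wild type, a log2 fold change of 0.79 (SE 0.18, adjusted p = 0.0133). GAPB, the other subunit of the glyceraldehyde-3-phosphate dehydrogenase, was at 273, 442, 273 and 264 CPM in mARF8 stamens and 211, 193 and 146 CPM in wild type (log2 fold change 0.84, SE 0.22, adjusted p = 0.0184). The mean log2 CPM of the 47 genes lay 0.53, 1.00, 0.63 and 0.03 above the wild-type mean in mARF8 replicates 1 to 4. The T1s library (replicate 4) was thus close to wild type in this mean only, with single genes on both sides. Its PSBY and PSAK levels stood above all wild-type libraries. Others stood below them all, among them LHCB1.2 (135 CPM, wild type 196 to 219), LHCB2.2 (71.7 CPM, wild type 98.4 to 109) and LHCB2.3 (23.4 CPM, wild type 45.1 to 50.2).

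Other lists moved with these libraries, and with total counts alone the medians were 0.86 for the 46 genes and 0.25 for all loci. Late pollen and sperm markers, of which 4 of 5 fell, summed to 3433, 889, 6676 and 2990 CPM in mARF8 stamens and 10869 to 13977 CPM in wild type. Endothecium markers, genes of the anther wall layer that opens the anther, of which 2 of 3 rose, summed to 208 to 242 CPM in mARF8 stamens and 67.1 to 79.6 CPM in wild type. Of the 6 heat shock genes tested 1 rose, and the list summed to 141, 649, 77.1 and 148 CPM in mARF8 stamens and 24.8 to 96.2 CPM in wild type. AP1, a sepal and petal marker, was at 3.63, 5.26, 1.81 and 2.43 CPM in mARF8 stamens and 0.977 to 1.74 CPM in wild type. Of the 2 tapetum markers tested 1 rose, and of the 4 carpel and ovule markers tested 2 fell. In bulk organs, more cells of a type and more transcript per cell cannot be told apart, and the part of these lists in the rise was not tested. The count of 32 changed with the libraries in the fit: leaving out wild type 3 left 6, leaving out wild type 1 left 15 and leaving out wild type 2 left 18. With mARF8 replicate 1, 2 or 4 left out it was 21, 29 and 42. Leaving out 1 library, the median log2 fold change of the genes stayed between 0.51 and 0.80. The share of all loci called in these fits is not given here, so fewer calls in the set and fewer calls over all loci cannot be told apart.

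**Figure D2:**
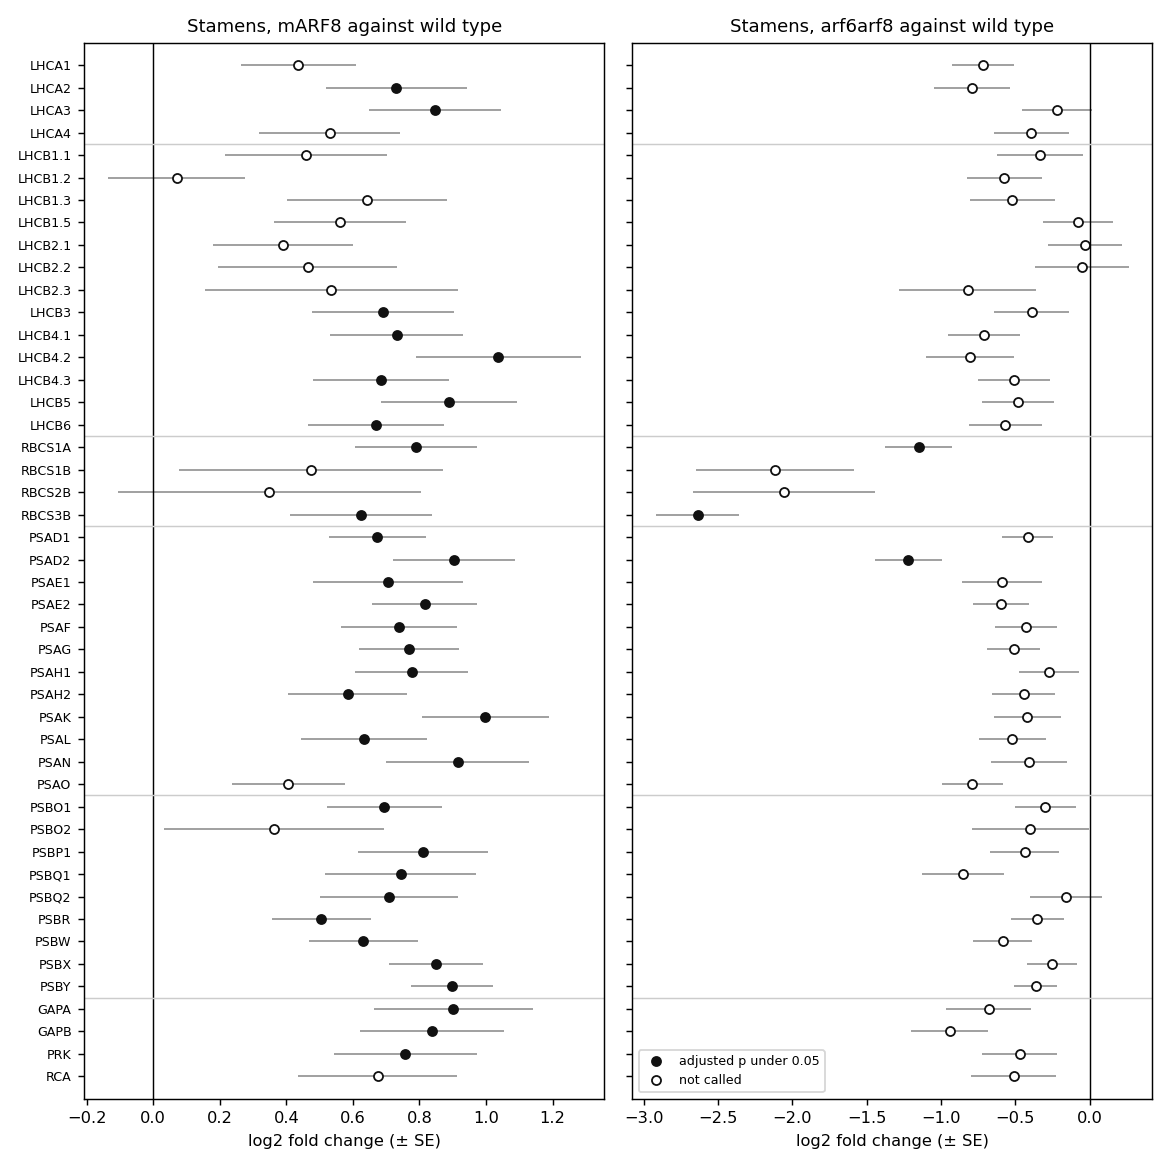
log2 fold change (points) with SE (lines) of the 46 genes tested in stamens, mARF8 against wild type on the left and arf6arf8 against wild type on the right, ordered by family, on axes of different width. Filled points have an adjusted p under 0.05: 32 on the left, all above 0, and 3 on the right, RBCS3B, PSAD2 and RBCS1A.

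In arf6arf8 stamens, 2 of the 4 Rubisco small subunit genes and 1 photosystem I gene were called lower than in wild-type stamens. RBCS3B, RBCS1A and PSAD2, a photosystem I subunit on the side that hands electrons to ferredoxin, fell, and no gene rose: 3 of 46 lower, against 3.04% of 18828 loci lower and 1.34% higher. DESeq2 called 12 lower (5.44% of loci), and 21 of 46 were lower at an unadjusted p under 0.05 (10.1% of loci). All 46 log2 fold changes were below 0, with a median of −0.51 against 0.01 over all loci. Libraries did not overlap for 43 genes, all lower in arf6arf8 (background 24.9%). With only the compared groups in the fit, 35 were called lower (12.6% of loci).

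RBCS3B (AT5G38410) was at 50.2 and 63.1 CPM in arf6arf8 stamens and 410, 340 and 302 CPM in wild-type stamens, a log2 fold change of −2.64 (SE 0.28, adjusted p = 0.00178, edgeR). RBCS1A was at 588 and 666 CPM in arf6arf8 and 1477, 1392 and 1281 CPM in wild type (log2 fold change −1.15, SE 0.22, adjusted p = 0.0237). The arf6arf8 libraries were below all wild-type libraries for both genes. The weakly expressed copies were not called. RBCS1B was at 1.34 and 3.09 CPM in arf6arf8 and 12.4, 9.17 and 6.84 CPM in wild type (log2 fold change −2.12, SE 0.53, adjusted p = 0.0606). RBCS2B was at 0.824 and 0.901 CPM in arf6arf8 and 4.97, 2.23 and 3.91 CPM in wild type (log2 fold change −2.06, SE 0.61, adjusted p = 0.106). PSAD2 was at 25.0 and 20.5 CPM in arf6arf8 and 49.3, 55.8 and 52.8 CPM in wild type, a log2 fold change of −1.22 (SE 0.22, adjusted p = 0.0189). Its paralog PSAD1, at 106 and 101 CPM in arf6arf8 and 137, 140 and 136 CPM in wild type, had a log2 fold change of −0.42 (SE 0.17, adjusted p = 0.226).

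The copies differed in their ratios. Within single libraries, RBCS3B amounted to 8.54 and 9.48% of RBCS1A in arf6arf8 stamens, against 27.7, 24.4 and 23.5% in wild-type stamens, and it amounted to 20.7 to 24.0% in mARF8 stamens and 13.8 to 19.2% over the 18 gynoecium libraries. As a whole the 4 RBCS genes took 9.62 and 10.7% of the CPM of the 47 genes in arf6arf8 stamens, 18.4 ± 0.994% in mARF8 stamens (SD, n = 4) and 16.9 to 18.03% in wild-type stamens. RBCS1B, RBCS2B and RBCS3B lie next to each other on chromosome 5, and RBCS1A on chromosome 1. The first 60 coding bases of the 4 genes (RefSeq, build TAIR10.1) are shown because these copies carry the clearest fall. Over this stretch the 4 genes differ only at scattered bases. Capitals mark the 12 positions at which the 4 genes are not all identical:

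RBCS1A (chr1:25049190-25049249, minus strand): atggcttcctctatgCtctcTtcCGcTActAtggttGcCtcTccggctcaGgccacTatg

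RBCS1B (chr5:15385096-15385155, minus strand): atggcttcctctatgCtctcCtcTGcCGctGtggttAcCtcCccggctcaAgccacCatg

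RBCS2B (chr5:15381919-15381978, minus strand): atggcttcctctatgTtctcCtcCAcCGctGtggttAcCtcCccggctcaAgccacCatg

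RBCS3B (chr5:15378247-15378306, minus strand): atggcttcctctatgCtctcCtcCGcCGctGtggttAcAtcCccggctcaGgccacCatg

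RBCS3B was the most stable of these calls. Its adjusted p stayed under 0.05 in all 14 other settings run, with a log2 fold change between −2.83 and −2.49. The calls of RBCS1A and PSAD2 were lost when wild type 1, wild type 2, arf6arf8 1 or arf6arf8 2 was left out, and that of RBCS1A also among the low-numbered libraries alone. Over all 14 settings their log2 fold changes ran from −1.27 to −1.004 for RBCS1A and from −1.38 to −1.08 for PSAD2. Of RBCS3B, 18.4% of the 50-base stretches also occur elsewhere and of RBCS1A 1.48%. Late pollen markers summed to 8806 and 7368 CPM in arf6arf8 stamens and 10869 to 13977 CPM in wild type, and AP1 was at 1.44 and 2.70 CPM in arf6arf8 and 0.977 to 1.74 CPM in wild type. Endothecium markers summed to 97.5 and 107 CPM in arf6arf8 and 67.1 to 79.6 CPM in wild type. Heat shock genes summed to 167 and 245 CPM in arf6arf8 and 24.8 to 96.2 CPM in wild type, with 0 of the 6 tested called. Of the 2 tapetum markers tested 1 was called higher in arf6arf8, and of the 4 carpel and ovule markers tested 1 was called lower. Their part in the fall was not tested.

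**Figure D3:**
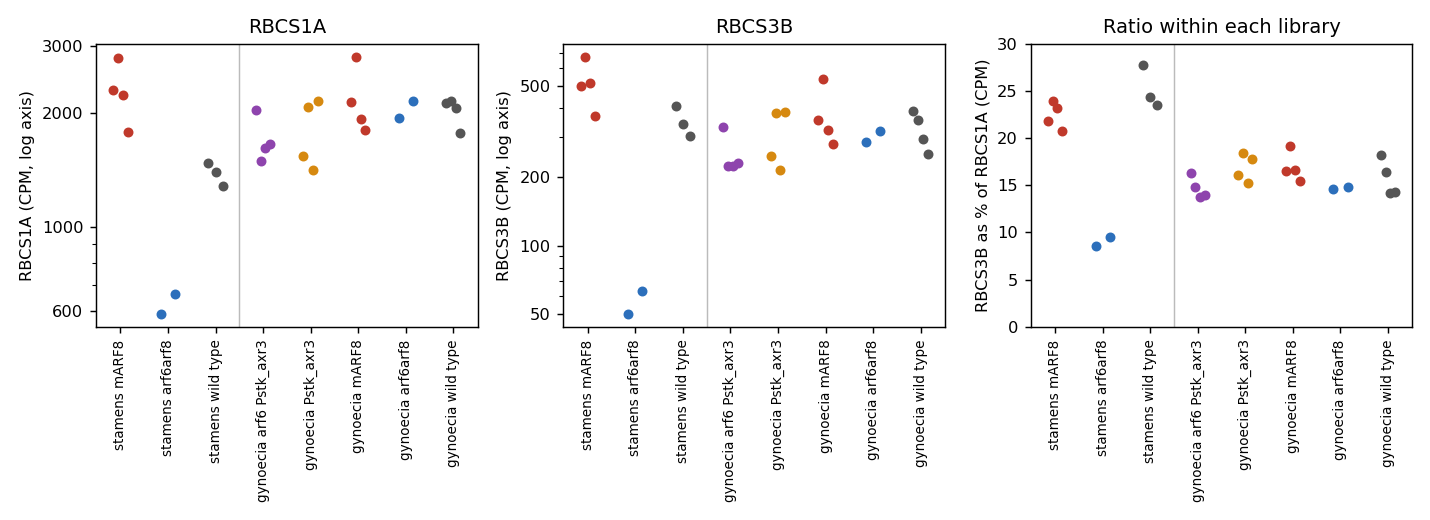
RBCS1A and RBCS3B in CPM on log axes (left and middle) and RBCS3B as a percentage of RBCS1A within each library (right), with each point a library and stamens left of the line. In arf6arf8 stamens RBCS3B is at 50.2 and 63.1 CPM and its ratio to RBCS1A at 8.54 and 9.48%, below all other libraries.

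In mARF8 stamens most of these genes were higher than in arf6arf8 stamens. Of 46 genes, 39 were higher and 0 lower, against 13.2% of 18828 loci higher and 6.28% lower, and the same number did not overlap (background 20.5%). The median log2 fold change was 1.21, against −0.01 over all loci. All tested LHCA, RBCS, PSA and Calvin cycle genes were called, with 8 of 9 PSB and 7 of 13 LHCB genes. RBCS3B, at 502, 672, 518 and 368 CPM in mARF8 and 50.2 and 63.1 CPM in arf6arf8, had the highest log2 fold change, 3.26 (SE 0.28, adjusted p = 0.000176, edgeR). PSAD2, at 96.4, 119, 92.4 and 67.2 CPM in mARF8 and 25.0 and 20.5 CPM in arf6arf8, had a log2 fold change of 2.12 (SE 0.22). LHCA2 had a log2 fold change of 1.52 and GAPB of 1.78, and PSBR had the lowest of those called, 0.86 (SE 0.17). This comparison shares its libraries with those before it. The count was 15 without arf6arf8 1 and 19 without arf6arf8 2.

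**Figure D4:**
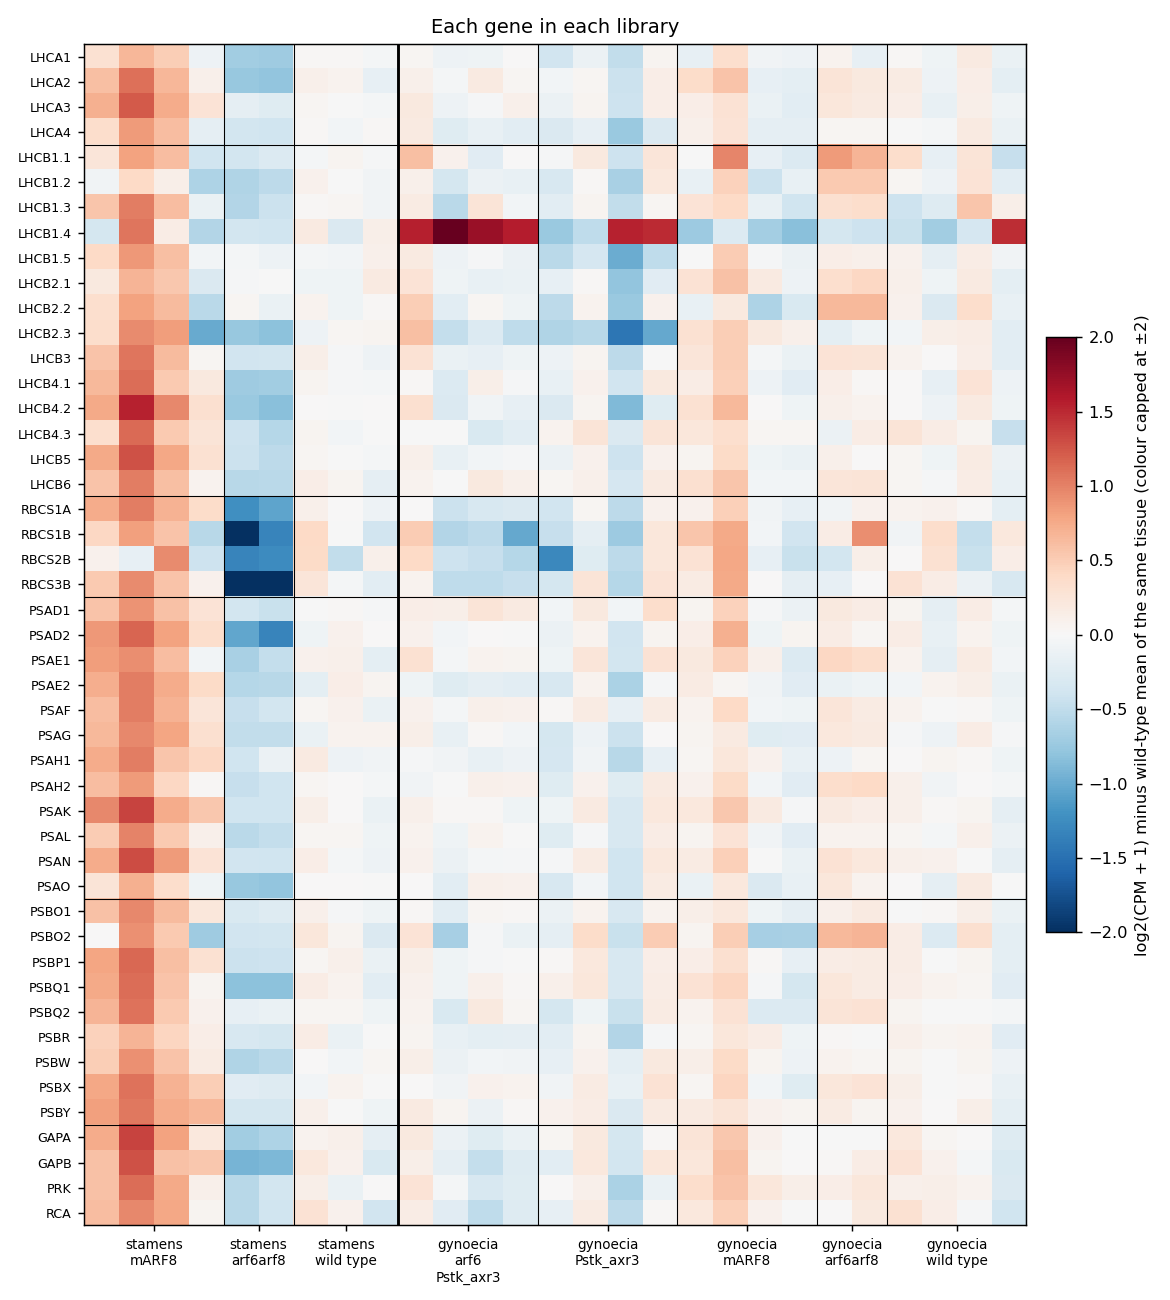
Each of the 47 genes (rows, grouped by family) in each of the 27 libraries (columns, grouped by organ and genotype), as log2(CPM + 1) minus the wild-type mean of the same organ, with the colour capped at 2 in either direction. The mARF8 stamen columns are mostly red and the arf6arf8 stamen columns blue, deepest in the RBCS rows. LHCB1.4 is red in 7 gynoecium libraries.

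Other genes of the photosynthetic machinery moved with the set in mARF8 stamens. Of 12 genes of electron transport and the ATP synthase, 11 were higher, led by the ferredoxins FD2 (log2 fold change 1.00, SE 0.16) and FD1 (1.42, SE 0.22). Of 12 further Calvin cycle genes 7 were higher, with CP12-2, a small regulator that binds GAPDH and PRK, at 2.14 (SE 0.22, adjusted p = 0.000781) and SBPASE at 1.06 (SE 0.18). Of 12 chlorophyll synthesis genes 7 were higher, with CHLD at 0.91 (SE 0.09) and CHLI1 at 1.05 (SE 0.16), both of the magnesium chelatase that starts the chlorophyll branch. Photorespiration genes were mixed, with 2 of 9 higher and 2 lower, among them catalase CAT2 at −0.98 (SE 0.15). Of 5 chlorophyll breakdown genes SGR1, which removes magnesium from chlorophyll, was lower (−0.76, SE 0.14). Of 6 plastid-encoded photosynthesis genes tested 0 were called by edgeR and 1 had an unadjusted p under 0.05, the list of 9 being at 17.1 to 34.1 summed CPM in mARF8 stamens and 16.4 to 23.8 CPM in wild type in these libraries from an mRNA kit.

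Transcription factors for chloroplast development did not move as one. Of 11 regulators tested in mARF8 stamens 5 rose (GLK1, PIF1, PIF5, SIG2 and SIG6) and 2 fell (GLK2 and SIG5). PIF5, a phytochrome-interacting factor, had a log2 fold change of 1.91 (SE 0.39). GLK1 and GLK2 are paralogs that activate antenna and chlorophyll synthesis genes, and GLK1 is shown beside GLK2 by a choice made after its values were seen. GLK1 was at 10.7, 40.6, 11.4 and 13.3 CPM in mARF8 stamens and 7.81, 6.94 and 6.19 CPM in wild type (log2 fold change 1.50, SE 0.51, adjusted p = 0.0471, edgeR). GLK2 was at 0.213, 0.877, 0.647 and 0 CPM in mARF8 stamens and 4.62, 3.97 and 4.23 CPM in wild type (log2 fold change −3.09, SE 0.53, adjusted p = 0.00453). The GLK2 groups did not overlap, and the mARF8 values are near the 3-count level of these libraries (0.388 to 0.663 CPM). In arf6arf8 stamens, GLK1 was at 6.38 and 5.41 CPM and GLK2 at 6.18 and 5.28 CPM, neither called. There the phytochrome-interacting factor genes PIF1, PIF4 and PIF5 fell, by log2 fold changes of −2.46, −3.12 and −3.65. LFNR2, a ferredoxin-NADP reductase, and PSBS, which dissipates excess light energy, were 2 of 12 electron transport genes called lower, at −1.42 (SE 0.15) and −1.31 (SE 0.31). The chlorophyll synthesis, further Calvin cycle and photorespiration lists had 0 calls there by edgeR, with 1 of 12, 5 of 12 and 4 of 9 lower at an unadjusted p under 0.05 and medians of −0.20, −0.40 and −0.34 on the log2 scale.

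In arf6arf8 gynoecia edgeR called 0 of 47 genes, against 11.2% of 18616 loci called in either direction. The unadjusted p was under 0.05 for 6, all higher (13.4% of loci), DESeq2 called 1 higher (6.86% of loci), and 8 were called higher with only the compared groups in the fit (7.94% of loci). The values lay mostly above wild type: 38 of 47 log2 fold changes were above 0, with a median of 0.14. Libraries did not overlap for 20 genes, all higher in arf6arf8 (background 19.5%), and both summed levels (17729 and 17811 CPM) were above the highest wild-type one (17521 CPM). PSAH2, a paralog of PSAH1, had the smallest p, at 156 and 162 CPM in arf6arf8 and 133, 117, 124 and 119 CPM in wild type (log2 fold change 0.38, SE 0.13, adjusted p = 0.0775). RBCS3B was at 283 and 318 CPM in arf6arf8 gynoecia and 389, 354, 293 and 253 CPM in wild type, so there the groups overlapped. Both AP3 and PI rose in arf6arf8 gynoecia, to a sum of 25.9 and 26.7 CPM, against 7.47 to 12.7 CPM in wild type. Of the regulators, GLK2 (20.0 and 22.4 CPM in arf6arf8, 6.85 to 9.44 CPM in wild type) and GNC were higher and CGA1 and PIF4 lower.

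In mARF8 gynoecia edgeR also called 0 of 47, against 0.688% of 18616 loci, with 0 at an unadjusted p under 0.05 (12.9% of loci) and 0 by DESeq2 (1.80% of loci). ARF8 was at 695 to 1069 CPM in these libraries and 327 to 358 CPM in wild type. The median log2 fold change of the 47 genes was 0.11, but −0.02 without mARF8 replicate 2 and −0.16 among the high-numbered libraries, and the mARF8 libraries were spread widely, with replicate 2 highest: RBCS1A was at 2143, 2814, 1927 and 1806 CPM in mARF8 gynoecia and 2129, 2148, 2061 and 1771 CPM in wild type.

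In Pstk_axr3 gynoecia the share of these genes called lower was no larger than that of all loci. LHCB1.5, LHCB2.3 and PSAH1 fell, 3 of 47, and 0 rose, against 7.06% of 18616 loci lower and 8.67% higher, and DESeq2 called 4 lower (6.94% of loci). These are results about single genes and not about the set. LHCB1.5, a major antenna gene, was at 603, 692, 438 and 615 CPM in Pstk_axr3 gynoecia and 934, 777, 967 and 837 CPM in wild type (log2 fold change −0.58, SE 0.14, adjusted p = 0.00734, edgeR). LHCB2.3 was at 45.9, 47.7, 25.3 and 33.9 CPM in Pstk_axr3 and 67.6, 76.6, 77.9 and 60.6 CPM in wild type (log2 fold change −0.89, SE 0.22, adjusted p = 0.00996). For both genes every Pstk_axr3 library was below every wild-type library, which held for 3 of the 47 genes and 8.23% of loci. PSAH1, at 90.6, 110, 78.1 and 102 CPM in Pstk_axr3 and 115, 120, 117 and 108 CPM in wild type, overlapped (log2 fold change −0.28, SE 0.09, adjusted p = 0.0469) and lost its call in 9 other settings. Among the low-numbered libraries alone LHCB1.5 was no longer called (−0.40, adjusted p = 0.224, edgeR), and among the high-numbered ones LHCB2.3 was not (−1.25, adjusted p = 0.0635). The median of the 47 was −0.08, and 0.01 without Pstk_axr3 replicate 3, and 12 of the 47 had a log2 fold change above 0.

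In arf6 Pstk_axr3 gynoecia LHCB1.5 and LHCB2.3 were higher than in Pstk_axr3, again a share of the 47 genes near that of all loci. LHCB1.5 was at 993, 812, 865 and 808 CPM in arf6 Pstk_axr3 and 603, 692, 438 and 615 CPM in Pstk_axr3 (log2 fold change 0.56, SE 0.14, adjusted p = 0.0154, edgeR). LHCB2.3 was at 107, 50.2, 57.9 and 49.0 CPM in arf6 Pstk_axr3 and 45.9, 47.7, 25.3 and 33.9 CPM in Pstk_axr3 (log2 fold change 0.78, SE 0.22, adjusted p = 0.0359). Of the 47 genes these 2 were called, against 3.63% of loci higher. The groups did not overlap for 3 genes (background 6.75% higher), these 2 and LHCB1.4, whose values follow the library numbers whatever the genotype, as given below. LHCB1.4 was at 6.90 CPM or more in arf6 Pstk_axr3 and reached 6.79 CPM in Pstk_axr3. Against wild type, arf6 Pstk_axr3 had 0 calls by edgeR (1.72% of loci) and 0 by DESeq2 (2.73% of loci), with 1 gene (LHCB1.4) at an unadjusted p under 0.05 (13.1% of loci). The 3 comparisons share libraries. The LHCB2.3 call was also lost without arf6 Pstk_axr3 1, Pstk_axr3 3 or Pstk_axr3 4. With only the arf6 Pstk_axr3 libraries that are of line 25-2 by title, 0 of 47 were higher than in Pstk_axr3. The log2 fold changes were then 0.47 for LHCB1.5 and 0.38 for LHCB2.3. The transgene transcript differed too: IAA17 was at 31.9, 28.4, 26.2 and 23.5 CPM in arf6 Pstk_axr3, 65.1, 74.4, 61.8 and 60.2 CPM in Pstk_axr3 and 7.15 to 12.7 CPM in wild type. The summed carpel and ovule markers were at 272 to 401 CPM in arf6 Pstk_axr3, 216 to 322 CPM in Pstk_axr3 and 412 to 434 CPM in wild type, with SHP1 and SHP2 lower in Pstk_axr3 than in wild type. Their part in the LHCB difference was not tested.

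**Figure D5:**
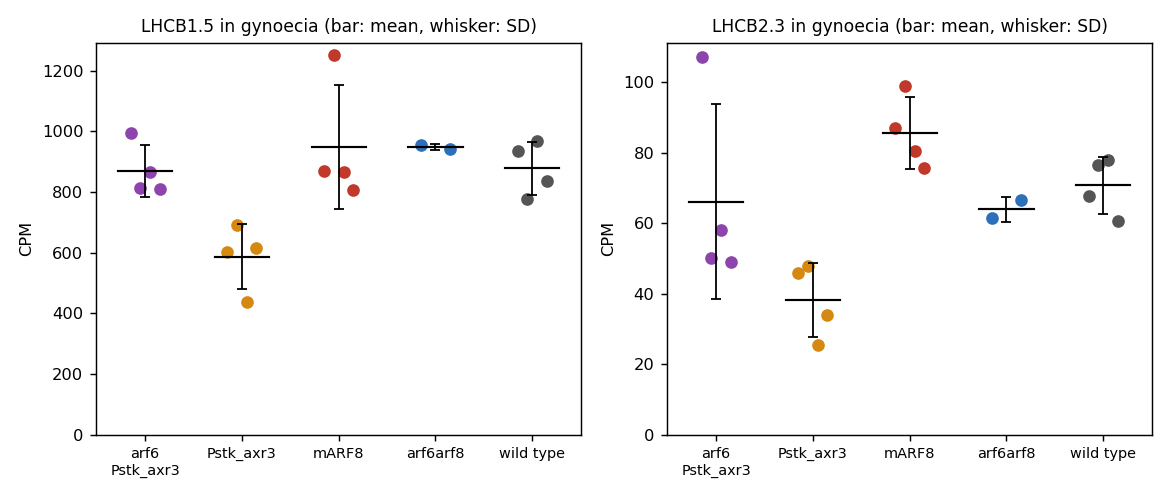
LHCB1.5 (left) and LHCB2.3 (right) in CPM in each gynoecium library (points), with group means (bars) and SD (whiskers) on axes that start at 0. The Pstk_axr3 libraries (438 to 692 CPM and 25.3 to 47.7 CPM) lie below all arf6 Pstk_axr3 and all wild-type libraries.

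LHCB1.5 lies on chromosome 2 (AT2G34420, 14522524 to 14523568, minus strand) and LHCB2.3 on chromosome 3 (AT3G27690, 10255906 to 10257489, plus strand; RefSeq, build TAIR10.1). Genes on the opposite strand overlap both, and 17.3% of the 50-base stretches of LHCB1.5 occur elsewhere, against 0 for LHCB2.3. The 250 bases before their annotated starts are shown because these are the genes called in both Pstk_axr3 comparisons. Capitals mark matches on either strand to the G-box CACGTG, bound by bHLH and bZIP factors, and to CCAATC, a sequence given for GLK binding:

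LHCB1.5 (chr2:14523569-14523818, minus strand): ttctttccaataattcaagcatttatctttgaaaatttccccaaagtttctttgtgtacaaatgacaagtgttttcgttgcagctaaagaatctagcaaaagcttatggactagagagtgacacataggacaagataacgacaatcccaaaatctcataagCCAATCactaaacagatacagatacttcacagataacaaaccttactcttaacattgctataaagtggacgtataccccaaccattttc

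LHCB2.3 (chr3:10255656-10255905, plus strand): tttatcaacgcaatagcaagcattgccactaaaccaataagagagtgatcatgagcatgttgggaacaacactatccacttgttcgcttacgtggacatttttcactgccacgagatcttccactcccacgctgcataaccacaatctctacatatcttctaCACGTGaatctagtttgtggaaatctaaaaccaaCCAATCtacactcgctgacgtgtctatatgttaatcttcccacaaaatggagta

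The match to CCAATC begins 89 bases before the start in LHCB1.5 and 54 bases before it in LHCB2.3, which also has a G-box at 88 bases. In windows of 250 bases before annotated starts, CACGTG was present for 10 of the 47 genes (21.3%) and for 6.49% of all 27438 genes, and CCAATC for 12 (25.5%) and for 10.2% of all genes. GATAAG, the I-box core of light-regulated promoters, was present for 11 (23.4%) and for 12.3% of all genes. AAAATATCT, the evening element, was present for 0 of the 47 and for 2.36% of all genes. These matches describe the letters of the windows, and no test was made of them.

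The effects of the genotypes were then compared between organs in a fit over all 27 libraries. The effect of arf6arf8 was lower in stamens than in gynoecia for 7 genes (RBCS1A, RBCS1B, RBCS3B, PSAD2, PSAH2, PSAO and PSBQ1) and higher for 0, against 3.78% of 20665 loci lower and 2.86% higher. The difference of effects, as log2, was −2.53 (SE 0.40, adjusted p = 0.000236, edgeR) for RBCS3B, −2.71 (SE 0.72, adjusted p = 0.0242) for RBCS1B, −1.31 (SE 0.28, adjusted p = 0.00522) for PSAD2, −1.03 (SE 0.31, adjusted p = 0.0463) for PSBQ1, a protein of the oxygen-evolving complex, and −0.81 (SE 0.24, adjusted p = 0.0440) for PSAH2. Over the 47 genes, 46 differences were below 0, with a median of −0.65 against 0.02 over all loci. The count was 2 without gynoecium arf6arf8 2 or without stamen arf6arf8 1, 4 without gynoecium arf6arf8 1, stamen arf6arf8 2 or stamen wild type 1, and 14 with median-of-ratios scaling.

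The effect of mARF8 was higher in stamens than in gynoecia for 15 genes and lower for 0, against 14.1% of 20665 loci higher and 11.7% lower, and the median difference was 0.54 against 0.03 over all loci. By role these were 8 of 12 PSA, 5 of 9 PSB, 1 of 4 LHCA and 1 of 14 LHCB genes, with 0 RBCS and 0 Calvin cycle genes. PSBY (0.68, SE 0.15, adjusted p = 0.00230, edgeR), PSAG (0.75, SE 0.18), PSAE2 (0.76, SE 0.20), LHCB5 (0.76, SE 0.22), LHCA3 (0.75, SE 0.22) and PSAD1 (0.49, SE 0.18, adjusted p = 0.0493) were among them, as log2 differences. Without wild-type stamens 3 the count was 8, without mARF8 stamens 2 it was 9, and without mARF8 stamens 4 it was 28. By title the mARF8 lines were not the same in both organs, so organ and line cannot be fully told apart.

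LHCB1.4 differed from the other 46 in level and pattern. It was near 1 CPM or lower in most libraries, with 0.221 to 2.85 CPM in stamens, where 3 counts correspond to 0.309 to 1.07 CPM. In gynoecia it was at 6.90, 9.76, 7.90 and 6.99 CPM in arf6 Pstk_axr3, 0.606, 0.892, 6.79 and 6.51 CPM in Pstk_axr3, 0.501 to 1.21 CPM in mARF8, 1.11 and 1.01 CPM in arf6arf8 and 0.967, 0.657, 1.13 and 6.48 CPM in wild type. The high values fall in the 7 gynoecium libraries whose titles carry library numbers from 32 up, whatever the genotype, and the low values in the 11 with lower numbers. What the numbers stand for is not given in the sources used here, and the cause was not tested.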

How the data were processed

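RNA was measured by mRNA sequencing with single-end reads of 50 bases, per the labels' protocols. The deposited values are raw read counts per locus for 33602 loci, 1 file per library. Per the submitters' processing notes, TopHat2, HTSeq, edgeR and the TAIR10 build were used. Versions, strand setting and the handling of reads with several matches are not given in the sources used here.

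Libraries were grouped by title and genotype label, and line names were taken from titles. Loci were filtered with filterByExpr by group (minimum count 10, total 15), scaled with TMM factors and tested with edgeR 4.0.16 (R 4.3.3, quasi-likelihood F-test, 1 fit per organ with all its groups). P-values were Benjamini-Hochberg adjusted over all 18828 loci in stamens, 18616 in gynoecia and 20665 in the fit over both organs, which served the comparison of wild-type organs and the differences of effects. A locus was called at an adjusted p under 0.05. CPM use 1 set of TMM factors over all 27 libraries; mean log2 CPM uses a prior count of 2. A level of 3 counts corresponds to 0.171 to 1.07 CPM and covers counting error only. The procedure was tested on simulated data. Replicates differed by more than sampling noise, with chi-square per degree of freedom of at least 3.09. In stamens it was 5.99 to 74.1 between mARF8 libraries, 3.64 to 8.50 between wild-type libraries and 5.74 between the arf6arf8 libraries. The stamen fit takes these groups together, so the wide spread of mARF8 also enters the test of arf6arf8 against wild type.

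Text names, per comparison, the called member with the smallest adjusted p of each family, the called members with the highest and lowest log2 fold change and, of a related list with at least 3 calls, the 2 with the smallest adjusted p; further genes are named where a paragraph says why or follows a paralog. Members and lists were chosen with earlier results of these data known. Sequences and coordinates come from the RefSeq annotation of TAIR10.1. Alternatives were other scaling, filters, DESeq2 1.42.0, a replicate block, library-number groups, single lines and leaving out each library; scaling by total counts alone was added after seeing the data.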

Additional observations from a re-analysis of the deposited data

Results flagged for a closer look

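Of 200 sets of 4 libraries examined, 11 held a library far from the other 3, and chance flags about 1 in 20. In arf6 Pstk_axr3 gynoecia, replicate 1 was high for RBCS3B (332 CPM, the others 222 to 231), LHCB2.3 (107 CPM, the others 49.0 to 57.9) and RBCS2B (22.6 CPM, the others 11.0 to 12.4). In the same group replicate 2 was low for PSAF (379 CPM, the others 414 to 419.5) and PSBO1 (758 CPM, the others 885 to 897). In mARF8 gynoecia, replicate 2 was high for LHCB1.5 (1251 CPM, the others 807 to 869) and LHCA1 (867 CPM, the others 617 to 655). In mARF8 stamens, replicate 2 was high for GAPB (442 CPM, the others 264 to 273). In wild-type gynoecia, replicate 4 was low for PSBR (399 CPM, the others 483 to 500) and PRK (128 CPM, the others 164 to 169) and high for LHCB1.4 (6.48 CPM, the others 0.657 to 1.13).

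The effect of arf6arf8 differed between stamens and gynoecia for 7 members by the test of the difference, all lower in stamens (3.78% of loci lower). As log2 differences, stamens minus gynoecia, these included RBCS1B at −2.71, RBCS3B at −2.53, PSAD2 at −1.31, PSBQ1 at −1.03 and PSAH2 at −0.81. The effect of mARF8 differed for 15 members, all higher in stamens (14.1% of loci higher). Among them were PSAE2 at 0.76, LHCB5 at 0.76, LHCA3 at 0.75, PSAG at 0.75, PSBY at 0.68 and PSAD1 at 0.49.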

How the results depend on the processing

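Of 710 values of named members under the alternatives, 623 kept direction and call, 87 lost the call and 0 changed direction. Medians over the members changed sign in 4 gynoecium comparisons: mARF8 against wild type under 2 of 17 alternatives (−0.16 to 0.18), Pstk_axr3 against wild type under 1 of 17 (−0.15 to 0.01), arf6 Pstk_axr3 against wild type under 4 of 18 (−0.11 to 0.05) and against Pstk_axr3 under 2 of 18 (−0.05 to 0.14). The cause of a changed count or sign was not tested. For most of the counts below the share of all loci called in the same setting is not given, so they describe the number of calls only. The number of members called in arf6arf8 stamens was 3 in the main fit, 5 with the replicate block, 5 with the library-number group as covariate, 12 by DESeq2, 35 with only the compared groups, and 1 to 3 leaving out 1 library. In mARF8 stamens 32 became 17 among low-numbered libraries and 6 to 42 leaving out 1 library; for mARF8 against arf6arf8 stamens 39 became 15 to 45. In arf6arf8 gynoecia 0 became 1 among low-numbered libraries, 1 by DESeq2, 8 with only the compared groups, and stayed 0 leaving out 1 library. In Pstk_axr3 gynoecia 3 became 1 among low-numbered and 1 among high-numbered libraries, and 2 to 4 leaving out 1. For arf6 Pstk_axr3, 0 against wild type became 0 to 1 leaving out 1 library, and 2 against Pstk_axr3 became 1 with only the compared groups, 1 among high-numbered libraries, 0 with line 25-2 alone, and 1 to 2 leaving out 1. The difference of arf6arf8 effects had 7 calls, 14 with median-of-ratios scaling, 19 by DESeq2 and 2 to 9 leaving out 1 library; that of mARF8 effects had 15, 3 among low-numbered libraries and 8 to 28 leaving out 1. Wild-type stamens against wild-type gynoecia had 34, and 31 to 34 leaving out 1.

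Replicate numbers were not taken as pairs in the main fit. In stamens, deviations of same-numbered libraries correlated at −0.119 to 0.293 (median 0.159, 4 of 7 pairs over 0.1). Differently numbered stamen libraries had a median of −0.009 (4 of 19 over 0.1). In gynoecia the same-numbered ones correlated at −0.282 to 0.324 (median 0.031, 8 of 32 over 0.1). Differently numbered gynoecium libraries had a median of −0.008 (17 of 96 over 0.1). With the replicate block the count was also 42 in mARF8 stamens, 45 for mARF8 against arf6arf8, 36 between wild-type organs, and 9 and 21 for the differences of arf6arf8 and mARF8 effects. The low-numbered setting was not run for arf6 Pstk_axr3, whose libraries are all high-numbered. Where a group was left with 1 library, it is assumed to vary like the other groups.

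Wild-type stamens were the shallowest stamen group (3989223 to 5512416 counts), where RBCS1B, RBCS2B and LHCB1.4 had the lowest levels.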

Other observations

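LHCB1.4 was not the only locus to follow the library numbers in gynoecia. Of 17680 loci with a mean above 1 CPM, 9 were higher in all 7 gynoecium libraries numbered from 32 than in all 11 with lower numbers, and 34 were lower; this boundary was chosen after the LHCB1.4 values were seen. LHCB1.4 was at 6.48 to 9.76 CPM in the 7 and 0.501 to 1.21 CPM in the 11. The carbonic anhydrase genes CA2 and CA1 were at 2.97 to 4.49 and 46.1 to 57.5 CPM in the 7, and at 0 to 0.968 and 8.36 to 46.0 CPM in the 11. JAL34 was at 1.92 to 3.17 CPM in the 7 and 0 to 1.19 CPM in the 11. These libraries include all of arf6 Pstk_axr3, 2 of Pstk_axr3 and 1 of wild type, and the cause was not tested.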
